A study of Mus musculus with 3 samples.

Results

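The miR-106b-25 cluster is a group of 3 miRNA hairpins, miR-106b, miR-93 and miR-25, that lie close together in an intron of Mcm7, a gene for a subunit of the helicase that opens DNA at replication. Its members here were every listed arm of these hairpins, chosen by name: miR-106b-5p, miR-106b-3p, miR-93-5p, miR-93-3p, miR-25-5p and miR-25-3p. All 6 were listed, of 693 mature miRNAs in all.

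Short RNA was sequenced from TAG1 cells, a single mouse embryonic stem (ES) cell line in which doxycycline (Dox) induces Alk4*, a constitutively active type I receptor that phosphorylates Smad2/3. The Control library came from untreated cells. The SB cells were held for 16 hrs in 30 µM of the receptor inhibitor SB-431542, spelled SB-431541 in the sample labels, which blocks that phosphorylation. The Dox library came from cells given the same 16 hrs of SB and then 12 hrs of 1 µg/µl Dox. Control cells grew in serum and both treated cultures in serum-free medium with Knockout Serum Replacement. In any comparison with Control the medium and the treatment therefore cannot be told apart. The Dox cells also had 12 hrs more of treatment than the SB cells. Between SB and Dox, the induction of Alk4*, Dox itself and the added time likewise cannot be told apart. There was 1 library per condition, pooled from 2 sequencing runs, so no difference below has a replicate check and no p-value for a condition is given.

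A miRNA hairpin is cut first by Drosha in the nucleus and then by Dicer, which leaves a duplex of a 5p and a 3p arm. One arm, the guide, is loaded into the silencing complex, and the other, the passenger, is usually degraded. Bases 2 to 8 of the loaded arm, the seed, pair with target mRNAs, so miRNAs with the same seed share many predicted targets. The guides miR-106b-5p and miR-93-5p belong to the miR-17 family, known for repressing the cell cycle inhibitor p21 (Cdkn1a), and miR-25-3p belongs to the miR-92 family, known for repressing the pro-apoptotic Bim (Bcl2l11). The cluster is a paralog of miR-17-92 and miR-106a-363 and is known for holding back the cell cycle arrest and apoptosis that TGF-β can trigger.

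The 6 mature sequences are shown to let the seeds be compared, with the seed in capitals and each sequence written 5′ to 3′. They are RefSeq sequences on GRCm38.p6, all from the minus strand of chromosome 5.
miR-106b-5p: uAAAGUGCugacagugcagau
miR-93-5p: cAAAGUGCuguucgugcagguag
miR-25-3p: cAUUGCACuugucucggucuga
miR-106b-3p: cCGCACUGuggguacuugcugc
miR-93-3p: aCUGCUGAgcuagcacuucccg
miR-25-5p: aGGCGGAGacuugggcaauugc
miR-106b-5p and miR-93-5p held the same seed, AAAGUGC, and matched at 16 of 21 positions counted from the 5′ end. miR-25-3p held another seed, AUUGCAC. The seeds of the other 3 arms, as capitalized above, were each found in no other of the 516 listed miRNAs for which a RefSeq sequence was matched.

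The 3 hairpins are shown with both arms in capitals, to place the arms that are compared below. They lie on the minus strand of GRCm38.p6, at chr5:138165737-138165818 (miR-106b), chr5:138165523-138165610 (miR-93) and chr5:138165321-138165404 (miR-25).
miR-106b: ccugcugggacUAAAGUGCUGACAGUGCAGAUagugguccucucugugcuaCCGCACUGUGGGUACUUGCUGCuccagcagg
miR-93: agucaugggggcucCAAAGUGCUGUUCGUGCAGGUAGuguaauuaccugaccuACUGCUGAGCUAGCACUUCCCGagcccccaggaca
miR-25: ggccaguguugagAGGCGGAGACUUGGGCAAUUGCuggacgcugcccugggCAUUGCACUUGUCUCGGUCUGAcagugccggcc
In the direction of transcription miR-106b comes first, 126 bases separate it from miR-93, and 118 bases separate miR-93 from miR-25. In the GENCODE annotation all 3 hairpins lay within intron 13 of the 15-exon coding transcript Mcm7-201, and miR-93 and miR-25 also lay within exon 1 of the retained-intron transcript Mcm7-202. The forward primer of the study's assay for the primary transcript, ttgtctcggtctgacagtgc, matched positions 60 to 79 of the miR-25 hairpin, so it starts within the miR-25-3p arm. The Mcm7 transcript itself is not measured by short RNA sequencing and is not analysed here.

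Levels are in rpm, the number of reads of a miRNA for every 1000000 reads in its library. A read was worth 0.0913 rpm in Control, 0.0881 rpm in SB and 0.101 rpm in Dox. Reads on listed miRNAs made up 28.3%, 24.1% and 33.4% of the library totals that these values imply, which differ from the read numbers stated in the study's text, and the median miRNA moved with them, by -0.19 (log2) in SB against Control and by 0.38 in Dox against SB. Markers of ES cells, a chosen list of 13 arms of the miR-290 and miR-302 clusters that leaves out other listed arms of both, were all detected and summed to 74958 rpm in Control, 59698 rpm in SB and 85039 rpm in Dox, or 26.5%, 24.7% and 25.5% of the miRNA reads. Of this, miR-290-5p held 35638, 18094 and 37406 rpm, and the other 12 summed to 39321, 41604 and 47633 rpm. Markers of fibroblasts (8 of 8 listed), a cell type often used as feeder cells, summed to 2342 rpm, 6575 rpm and 2799 rpm, or 0.827%, 2.73% and 0.839% of the miRNA reads. That sum counts the reads of miR-199a-3p and miR-199b-3p, which have identical values, in both, and with them counted once it was 1795, 4631 and 2463 rpm. The fibroblast sum was thus highest in SB either way, the library that both main comparisons share, and its part in the results on the cluster was not tested. Each of the 8 markers was highest in SB, but they differed between Control and Dox. In Dox miR-21-5p (1159, 2486 and 2041 rpm) and miR-143-3p (55.5, 114 and 71.9 rpm) stood above Control. The other fibroblast markers stood below Control there, miR-199a-3p among them (547, 1943 and 337 rpm).

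The cluster was abundant in these cells and was led by a single arm. Together its members held 15351 rpm in Control (95% interval 15278 to 15425), 11870 rpm in SB (11807 to 11934) and 19277 rpm in Dox (19190 to 19363), which was 5.42%, 4.92% and 5.78% of all miRNA reads. These are exact Poisson intervals. Like all intervals here they describe counting error alone, and even that in part, because PCR copies of 1 molecule were not marked. The sum was therefore lowest in SB and highest in Dox, with a log2 ratio of -0.37 (-0.38 to -0.36) for SB over Control, 0.70 (0.69 to 0.71) for Dox over SB and 0.33 (0.32 to 0.34) for Dox over Control. These sizes depended on how the libraries were scaled. With the reads on listed miRNAs in place of all reads as the denominator, the same ratios were -0.14, 0.23 and 0.09, and quantile normalization turned the last to -0.11.

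miR-25-3p, the guide of its hairpin, was the most abundant member in every library, at 12856 rpm in Control, 9859 rpm in SB and 14975 rpm in Dox. It ranked 5, 6 and 7 among the 693 listed miRNAs and held 83.7%, 83.1% and 77.7% of the reads of the cluster. Its level was lower in SB than in Control by a log2 ratio of -0.38 (-0.39 to -0.37) and higher in Dox than in SB by 0.60 (0.59 to 0.61), a 1.52-fold difference.

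miR-25-5p, the passenger of the same hairpin, was at 1416 rpm in Control, 706 rpm in SB and 2996 rpm in Dox, from 15513, 8015 and 29645 reads. Its fold range between the libraries was the widest of the members. Its log2 ratio was -1.0 (-1.04 to -0.97) for SB over Control and 2.09 (2.05 to 2.12) for Dox over SB, a 4.24-fold difference. That signed ratio lay above those of 95.1% of all listed miRNAs. In Dox it also stood above Control, by 1.08 (1.05 to 1.11).

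miR-93-5p, the guide of the miR-93 hairpin, differed in where it peaked. Its level was 582 rpm in Control, 781 rpm in SB and 639 rpm in Dox, so it was highest in SB, where miR-25-5p was lowest. Control was its lowest library in rpm, but under the 5 other scalings described below Dox was, with a log2 ratio for Dox over Control of 0.13 by rpm and of -0.17 to -0.04 under the others. The log2 ratio was 0.42 (0.38 to 0.47) for SB over Control and -0.29 (-0.34 to -0.24) for Dox over SB. In SB it exceeded miR-25-5p (765 to 798 rpm against 691 to 722 rpm), while in Control and Dox it was below it.

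miR-93-3p, the passenger of that hairpin, was the scarcest member, with 12.1 rpm in Control, 15.1 rpm in SB and 8.39 rpm in Dox. These values rest on 133, 172 and 83 reads, so they are less precise than the others. Like miR-93-5p it was highest in SB, with a log2 ratio of 0.32 (-0.02 to 0.66) for SB over Control, an interval that includes 0, and of -0.85 (-1.25 to -0.47) for Dox over SB.

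miR-106b-5p, the guide with the same seed as miR-93-5p, had the narrowest fold range in rpm, at 332 rpm in Control, 372 rpm in SB and 342 rpm in Dox. Its log2 ratios were 0.16 (0.10 to 0.23), -0.12 (-0.19 to -0.06) and, for Dox over Control, 0.04 (-0.02 to 0.11).

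miR-106b-3p, the passenger of the miR-106b hairpin, was at 153 rpm in Control, 137 rpm in SB and 316 rpm in Dox. It was close to level between Control and SB, at -0.15 (-0.25 to -0.05), and higher in Dox than in SB by 1.21 (1.12 to 1.29), a 2.31-fold difference. In Dox its interval, 305 to 328 rpm, nearly reached that of miR-106b-5p, 330 to 354 rpm, whereas in SB it was at well under the level of that arm.

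**Figure D1:**
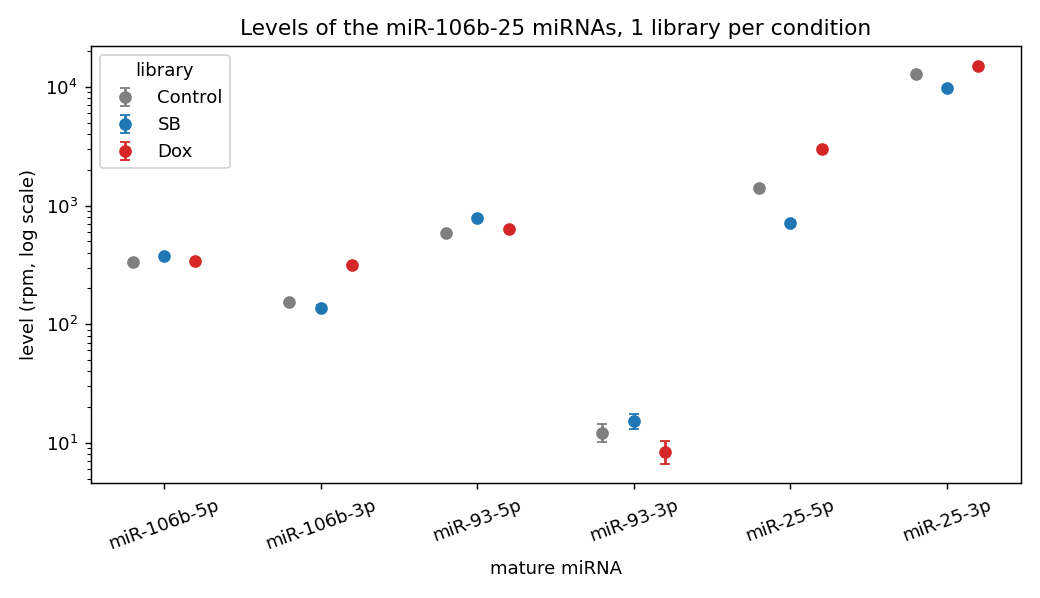
Level in rpm (log scale) of each of the 6 members in the Control, SB and Dox libraries, 1 library each, with bars for the exact 95% Poisson interval. miR-25-3p lies highest, between 9859 and 14975 rpm, miR-93-3p lowest, between 8.39 and 15.1 rpm, and miR-25-5p and miR-106b-3p stand out for their high points in Dox.

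The order of the members by level was the same in Control and Dox, from miR-25-3p through miR-25-5p, miR-93-5p, miR-106b-5p and miR-106b-3p to miR-93-3p. In SB, miR-93-5p and miR-25-5p changed places. No intervals of neighbours in this order overlapped within a library, but without a second library per condition the spread that separates them is of counting alone.

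Each member was set against the criteria under which the study called a miRNA responsive to phosphorylated Smad2/3. The criteria were a log2 ratio of rpm of 0.32 or more in size and a Z-score outside the central 95% of a normal distribution. The Z-score is computed from the reads of a pair of libraries and compares those libraries, not the conditions. For SB against Control, 2 of the 6 members were called lower, miR-25-5p and miR-25-3p, beside 30.2% of all listed miRNAs. One member, miR-93-5p, was called higher, beside 15.3% of all. The other 3 were called in neither direction. miR-93-3p missed both criteria narrowly, with a log2 ratio of 0.319 against a threshold of 0.322 and a Z-score of 1.92. It was called higher under 4 of 5 other scalings of the libraries, all but miR-26a-5p (0.08), with log2 ratios of 0.47 to 0.55.

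For Dox against SB, 3 of 6 members were called higher, miR-25-5p, miR-106b-3p and miR-25-3p, beside 41.7% of all listed miRNAs, and miR-93-3p was called lower, beside 17.9%. For Dox against Control, miR-106b-3p and miR-25-5p were called higher, beside 30.6% of all, and miR-93-3p lower, beside 19.8%. With 6 members these counts were not set apart from the background shares. The median log2 ratio of the members was 0.01 for SB over Control, beside -0.19 for all listed miRNAs, and it was 0.24 beside 0.38 for Dox over SB and 0.18 beside 0.19 for Dox over Control.

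The activation profile, lower in SB than in Control and higher in Dox than in SB, was met by both arms of miR-25 and by no arm of miR-106b or miR-93, which makes 2 of 6 members beside 20.9% of all listed miRNAs. None of the 6 met the opposite profile, beside 9.67% of all. These counts turned with the scaling of the libraries. With reads on listed miRNAs, the median of ratios, TMM and quantile normalization, miR-25-5p alone met the activation profile (1 of 6, beside 11.4% to 14.9% of all), and miR-106b-5p, miR-93-5p and miR-93-3p met the opposite profile (3 of 6, beside 14.7% to 16.9%). Scaled to miR-26a-5p, the control miRNA of the study, miR-106b-3p joined both arms of miR-25 in the activation profile (3 of 6, beside 27.7%) and none met the opposite one, beside 7.65%. Both profiles use the SB library in both of their steps, so a value in that library that is low or high for any reason enters both.

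**Figure D2:**
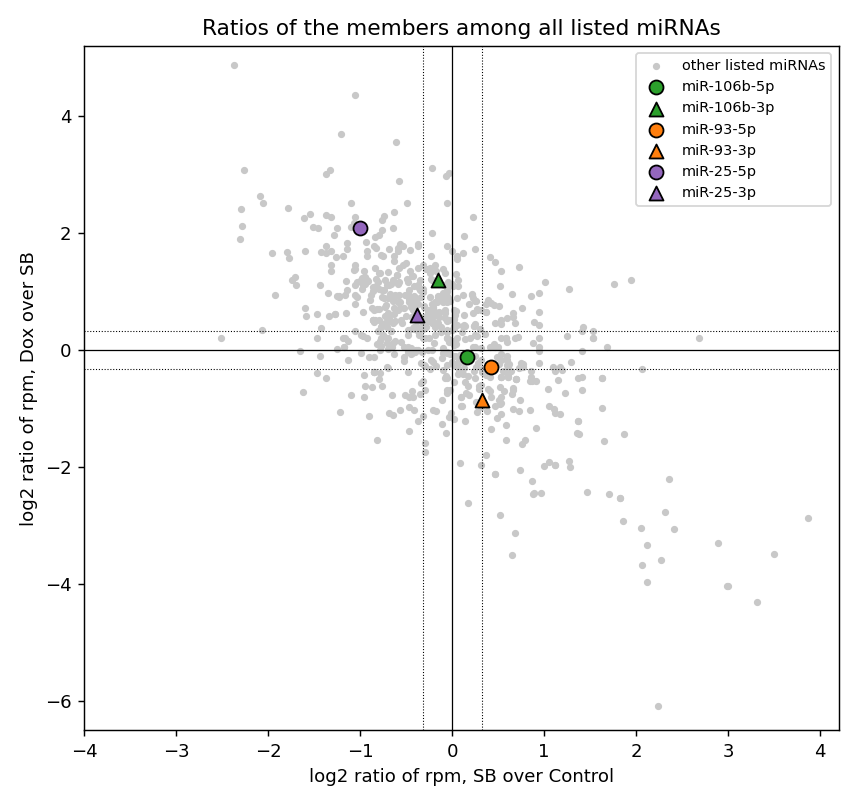
Log2 ratio of rpm for SB over Control (horizontal) and Dox over SB (vertical) of the 6 members and of the other listed miRNAs (grey), 1 library per condition, with dotted lines at the fold threshold, 0.32 in each direction. miR-25-5p lies at -1.0 and 2.09 and miR-25-3p at -0.38 and 0.60 in the upper left, the miR-93 arms lie in the lower right, and the SB library enters both axes with opposite sign.

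The calls differed in how much they owed to the scaling of the libraries. The 5 other scalings were to reads on listed miRNAs, by the median of ratios, by TMM, by quantile normalization and to miR-26a-5p. miR-25-5p was called in the same direction in all 3 comparisons under each of them, with a log2 ratio between 1.62 and 2.03 for Dox over SB. miR-106b-3p was likewise higher in Dox than in SB under all 5, between 0.74 and 1.15, and miR-93-3p lower, between -1.32 and -0.91.

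miR-25-3p was less stable. It was called lower in SB than in Control in 1 of 5 other scalings (-0.63 to -0.15) and higher in Dox than in SB in 1 of 5 (-0.07 to 0.54), so that its activation profile held with rpm and with miR-26a-5p. Per 1000000 miRNA reads it was at 45402 in Control, 40866 in SB and 44866 in Dox, the narrowest fold range of the 6 members on that scale. On the same scale miR-25-5p was at 5001, 2926 and 8976.

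For the guides of the other hairpins the scaling acted the other way. miR-93-5p, called in neither direction for Dox against SB by rpm, was called lower under all 5 other scalings, between -0.76 and -0.35. miR-106b-5p was called higher in SB than in Control and lower in Dox than in SB under 4 of 5. miR-93-5p was called higher in SB than in Control under 4 of 5, all but miR-26a-5p, which was itself at 647 rpm in Control, 766 rpm in SB and 798 rpm in Dox.

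Relative to the median of all listed miRNAs, a measure that is the same under rpm and each linear scaling, the members lay on both sides. For SB over Control miR-93-5p was 0.62 above the median, miR-93-3p 0.51 and miR-106b-5p 0.36, miR-106b-3p was at 0.04, and miR-25-3p and miR-25-5p were at -0.19 and -0.81. For Dox over SB miR-25-5p was 1.71 above it, miR-106b-3p 0.83 and miR-25-3p 0.22, and miR-106b-5p, miR-93-5p and miR-93-3p were at -0.50, -0.67 and -1.23.

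**Figure D3:**
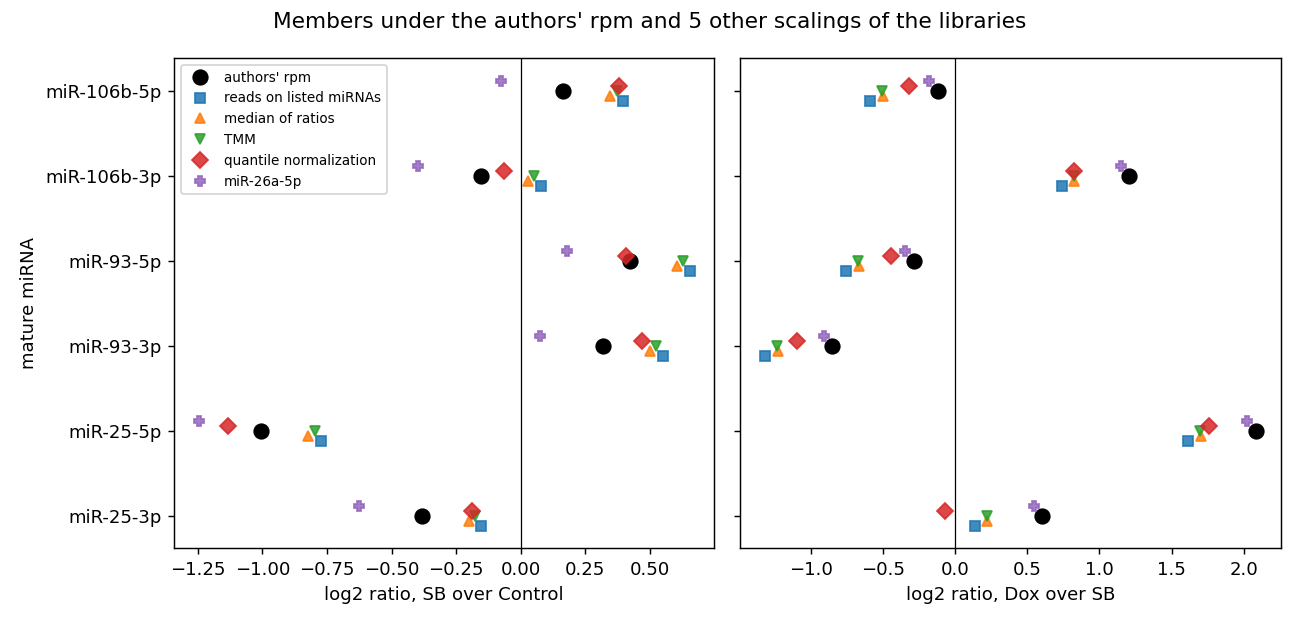
Log2 ratio of each member for SB over Control (left) and Dox over SB (right) by the authors' rpm (black) and under 5 other scalings of the libraries, 1 library per condition. Points of miR-25-5p, miR-93-5p and miR-93-3p stay on the same side of 0 in both panels and those of both miR-106b arms do for Dox over SB, while miR-25-3p reaches -0.07 for Dox over SB under quantile normalization.

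Hairpins of the cluster come from 1 primary transcript, but their mature arms were not found in fixed proportion. miR-25-3p outnumbered miR-93-5p 22.1-fold in Control (21.5 to 22.6), 12.6-fold in SB (12.3 to 12.9) and 23.4-fold in Dox (22.8 to 24.0). It outnumbered miR-106b-5p 38.7-fold, 26.5-fold and 43.8-fold. The ratio of miR-93-5p to miR-106b-5p, the pair with the same seed, stayed between 1.76 in Control and 2.10 in SB. The balance between guides thus shifted away from miR-25-3p in SB, and a ratio within a library does not depend on how its total is set.

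Both arms summed, the miR-25 hairpin was at 14272 rpm in Control, 10565 rpm in SB and 17971 rpm in Dox, with log2 ratios of -0.43 (-0.44 to -0.42) for SB over Control and 0.77 (0.76 to 0.78) for Dox over SB. The miR-93 hairpin was at 595, 796 and 648 rpm, with ratios of 0.42 (0.38 to 0.47) and -0.30 (-0.34 to -0.25). The miR-106b hairpin was at 484, 509 and 658 rpm, with ratios of 0.07 (0.02 to 0.13) and 0.37 (0.32 to 0.42). In rpm the 3 hairpins therefore had 3 different orders of the libraries.

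The balance between the arms of 1 hairpin also differed between libraries. miR-106b-3p made up 31.5% of the reads of its hairpin in Control (30.2% to 32.8%, exact Clopper-Pearson), 26.9% in SB (25.8% to 28.1%) and 48.1% in Dox (46.8% to 49.3%), so in Dox the arms were close to equal. miR-25-5p made up 9.92% (9.77% to 10.1%), 6.68% (6.54% to 6.82%) and 16.7% (16.5% to 16.8%). For both hairpins the share of the passenger was lowest in SB and highest in Dox.

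miR-93 did not share this. miR-93-3p made up 2.04% of its hairpin in Control (1.71% to 2.42%), 1.90% in SB (1.63% to 2.21%) and 1.30% in Dox (1.03% to 1.60%), lowest in Dox.

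**Figure D4:**
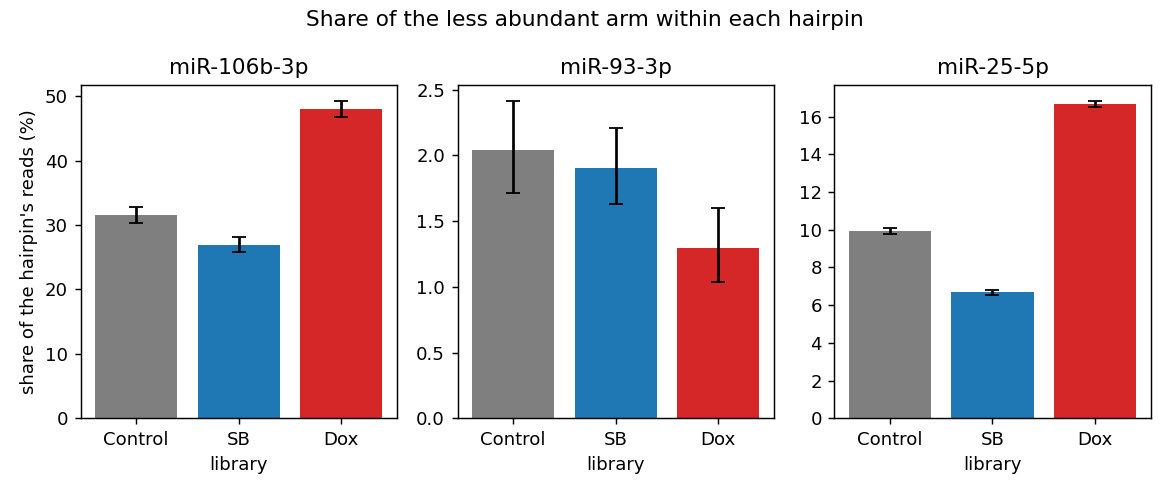
Share of the less abundant arm among the reads of each hairpin (percent, each axis from 0 with its own range) in the Control, SB and Dox libraries, 1 library each, with bars for the exact 95% Clopper-Pearson interval. miR-106b-3p reaches 48.1% and miR-25-5p 16.7% in Dox, their highest values, and miR-93-3p has its lowest value there, 1.30%.

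Shifts of this size were not particular to the cluster. Among 62 hairpins with at least 100 reads of each arm in every library, the log2 ratio of 3p over 5p differed between Dox and SB by a median of 0.61 in size (quartiles 0.33 and 1.33). The miR-25 hairpin, with a difference of -1.48, was 8 of 62 in order of size, and the miR-106b hairpin, with 1.33, was 17 of 62. The largest differences belonged to miR-23a (-3.51), miR-23b (-2.69) and miR-292 (-2.57). The less abundant arm gained over the other in 30 of the 62 hairpins and lost in 32, a count made after the values of the cluster were seen. The miR-93 hairpin, with 83 reads of miR-93-3p in Dox, was below the minimum, and its difference was -0.56. For SB against Control the shifts were smaller, 0.62 for miR-25 and -0.32 for miR-106b, beside a median of 0.34 in size.

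The guides of the cluster share their seeds with other miRNAs of these cells, so the level of a seed depends on all of them. The listed miRNAs with the seed of miR-106b-5p and miR-93-5p were shown for comparison with the sequences above.
miR-17-5p: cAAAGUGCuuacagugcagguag
miR-20a-5p: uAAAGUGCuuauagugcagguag
miR-20b-5p: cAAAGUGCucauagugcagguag
miR-106a-5p: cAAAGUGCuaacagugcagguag
miR-17-5p was at 149, 137 and 180 rpm in Control, SB and Dox, miR-20a-5p at 75.7, 65.9 and 89.8 rpm, miR-20b-5p at 138, 129 and 102 rpm and miR-106a-5p at 70.5, 70.4 and 61.2 rpm. Each was below miR-106b-5p in every library. The 6 listed miRNAs matched to this seed summed to 1347, 1555 and 1414 rpm, and miR-106b-5p and miR-93-5p held 67.9%, 74.2% and 69.4% of that. Only miRNAs identical at bases 2 to 8 were counted, so any arm with the seed at an offset is outside these sums.

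For SB over Control the 4 relatives had log2 ratios of -0.20 to -0.00 and none was called, while miR-93-5p was at 0.42. The sign of the relatives turned with the scaling (4 of 4 above 0 with reads on listed miRNAs), but with each linear scaling all 4 stayed below both members. For Dox over SB, miR-17-5p (0.40) and miR-20a-5p (0.45), both from miR-17-92, were called higher by rpm and under 1 of the 5 other scalings, with log2 ratios down to -0.07 and -0.02. miR-20b-5p (-0.34), from miR-106a-363, was called lower under all 5. miR-106a-5p, from the same cluster, was at -0.20 and uncalled by rpm, and was called lower under 4 of 5 (-0.67 to -0.26 over all 5).

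The relatives of miR-25-3p by seed were the following.
miR-92a-3p: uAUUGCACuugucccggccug
miR-92b-3p: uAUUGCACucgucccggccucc
miR-363-3p: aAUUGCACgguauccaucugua
miR-32-5p: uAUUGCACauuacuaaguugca
miR-367-3p: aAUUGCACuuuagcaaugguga
miR-92a-3p matched miR-25-3p at 18 of 21 positions and miR-92b-3p at 16 of 22. The longest run of bases that miR-25-3p had in common with any of 1679 mouse mature miRNAs was 12, with miR-92a-3p, below the 17 bases of the shortest read kept, and for the other members it was 8 to 10. With any of 1005 hairpins it was 9 to 12. A perfect match of a whole read could therefore not have been shared between a member and another sequence of these sets.

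miR-25-3p supplied most of the seed AUUGCAC, 68.0% of it in Control, 72.6% in SB and 69.8% in Dox, of sums of 18912, 13576 and 21443 rpm. miR-92a-3p, the guide of the last hairpin of miR-17-92, followed with 5360, 3248 and 5573 rpm. miR-363-3p was at 458, 282 and 325 rpm, miR-92b-3p at 194, 150 and 518 rpm, miR-32-5p at 41.6, 34.8 and 48.8 rpm and miR-367-3p at 1.73, 1.67 and 3.13 rpm. In rpm all 5 relatives were below Control in SB and above SB in Dox, as miR-25-3p was, although miR-367-3p had 19 reads in both Control and SB. With reads on listed miRNAs 4 of 5 were below Control in SB, all but miR-367-3p, and 4 of 5 were above SB in Dox, all but miR-363-3p.

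Of these 5 relatives, 3 were called lower in SB than in Control, miR-92a-3p (-0.72), miR-363-3p (-0.70) and miR-92b-3p (-0.37), beside 30.2% of all listed miRNAs. All but miR-363-3p (0.21) were called higher in Dox than in SB, beside 41.7% of all, with 0.78 for miR-92a-3p, 1.78 for miR-92b-3p, 0.49 for miR-32-5p and 0.90 for miR-367-3p, the last from 19 and 31 reads. The lower calls of miR-92a-3p and miR-363-3p in SB were kept under all 5 other scalings, while that of miR-92b-3p was kept under 2 of 5 (-0.61 to -0.14). The higher call of miR-92b-3p in Dox was kept under all 5. That of miR-92a-3p in Dox was kept under 4 of 5, and those of miR-32-5p and miR-367-3p under 1 of 5.

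Both paralogous clusters, each with 11 listed arms, were less abundant than miR-106b-25 in all libraries. miR-17-92 summed to 6463, 3984 and 7058 rpm and miR-106a-363 to 8822, 5189 and 8887 rpm, with miR-19b-3p and miR-92a-3p counted in both because their sequences do not tell the clusters apart. By rpm the activation profile was met by 3 of 11 arms of miR-17-92 and 5 of 11 of miR-106a-363, beside 20.9% of listed miRNAs. Under the 5 other scalings it was met by 2 to 7 and by 1 to 4 arms, beside 11.4% to 27.7% of all. No arm of either met the opposite profile with rpm or under these scalings, beside 7.65% to 16.9% of all. Their median log2 ratios were -0.20 and -0.51 for SB over Control and 0.66 and 0.33 for Dox over SB. All 3 cluster sums were lowest in SB, with rpm and under the 5 other scalings. The passengers miR-92a-1-5p (293.5, 154 and 555 rpm) and miR-92a-2-5p (386, 80.6 and 677 rpm), which pair with miR-92a-3p as miR-25-5p pairs with miR-25-3p, were also lowest in SB and highest in Dox, called so in all 3 comparisons under all 5 other scalings.

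Each member was then matched to the listed miRNAs with the nearest pattern, by the distance in the log2 ratios SB over Control and Dox over SB, among 286 others with at least 100 reads in each library. These distances describe 3 libraries and carry no test. miR-25-5p was nearest to miR-423-5p (distance 0.10), at 5683, 2647 and 11412 rpm, and to miR-320-3p (0.23), at 8300, 4644 and 17683 rpm. miR-25-3p was nearest to miR-291a-5p (0.04), at 2558, 1934 and 2999 rpm, and miR-376b-3p (0.06). miR-93-5p was nearest to miR-290-3p (0.10) and miR-22-5p (0.12).

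For miR-93-3p the nearest were miR-291a-3p (0.08), at 484, 578 and 311 rpm, and let-7c-5p (0.11). miR-106b-5p was nearest to miR-222-3p (0.06), at 350, 377 and 352 rpm, and miR-181b-5p (0.09), and miR-106b-3p to miR-700-3p (0.12) and miR-26b-5p (0.19). Within the cluster the nearest pair was miR-106b-5p and miR-93-5p, the arms with the same seed, at 0.31, and the farthest was miR-93-3p and miR-25-5p, at 3.22. The arms of miR-25 were 1.61 apart, those of miR-106b 1.37 and those of miR-93 0.57.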

How the data were processed

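Short RNA libraries of TAG1 cells (Control, SB and Dox, 1 each) were analysed from the deposited tables. The authors removed adaptors (FASTX clipper), dropped reads under 17 bases, pooled 2 runs per library and searched miRBase release 18 with Bowtie 0.12.7, mature sequences before hairpins, without mismatches. A read with several matching miRNAs went to one of them by its length or was counted for all. The deposited values are RPM, for which the authors divided the reads of a miRNA by the library total and multiplied by 1000000. The tables list miRNAs with 10 reads or more in total.

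Reads were recovered from the steps of the RPM values (all within 0.01 of a whole read), giving totals of 10955686 (Control), 11354692 (SB) and 9895513 (Dox). These differ from the library read numbers in the study's text, for a reason not given in the sources used here. These totals set the precision, and intervals are 95% exact intervals of counting error. Ratios had no pseudocount. With 1 library per condition no test of a condition was possible. Calls used the criteria of the study's methods, a fold of 1.25 and a Z-score of 1.96 in size, over all 693 listed miRNAs. Mature and hairpin sequences and positions came from RefSeq (GRCm38.p6), which matched 516 of 693 listed miRNAs, 6 of 6 members and 9 of 9 seed relatives. Gene structure came from GENCODE on GRCm38, whose coordinates are those of GRCm38.p6. No GC or length check over all miRNAs was made.

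The miRNAs named were the members, their seed relatives, arms of the paralogous clusters, miR-26a-5p, the 2 miRNAs nearest to each member in pattern, the 3 hairpins with the largest arm shift between SB and Dox, and the marker lists. Members and lists were chosen with earlier results of these data known. Alternatives were 5 other scalings, fold thresholds of 1.5 and 2, a Bonferroni Z-score threshold, a pseudocount of 1 rpm and a minimum of 10 reads in each library. Analyses used Python 3.11.15, numpy 2.4.6, pandas 2.3.3, scipy 1.17.1 and matplotlib 3.10.9, and scripts were tested on simulated data.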

Additional observations from a re-analysis of the deposited data

How the results depend on the processing

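Scaling moved most results. Scaled to reads on listed miRNAs, by the median of ratios, by TMM and by quantile normalization, 1 member was lower in SB than in Control (2 with rpm), 3 were higher (1 with rpm), 3 were lower in Dox than in SB (1 with rpm) and 1 met the activation profile (2 with rpm). Of all listed miRNAs, the share lower in SB than in Control went from 30.2% with rpm to between 20.8% and 25.5% under these scalings, the share higher from 15.3% to between 20.8% and 23.8%, and the share lower in Dox than in SB from 17.9% to between 25.4% and 31.5%. Scaled to miR-26a-5p, 0 members were higher in SB than in Control, beside 9.38% of all listed miRNAs. There 2 members were lower in Dox than in SB, beside 20.2%, and 3 met the profile, beside 27.7%. With fold thresholds of 1.5 and 2, 1 was lower in SB, 0 were higher, 0 were lower in Dox than in Control and 1 met the profile, and at 2, 0 were lower in Dox than in SB. With the Bonferroni threshold, 0 were lower in Dox than in Control. The share of all listed miRNAs was not computed for these fold and Z-score thresholds, so these counts have no background beside them. The count of members called higher in Dox than in SB was 3 with rpm. It was 2, without miR-25-3p, at a fold of 2 and under every other scaling but miR-26a-5p. Of all listed miRNAs, this share went from 41.7% with rpm to between 23.5% and 29.4% under those scalings. With miR-26a-5p it was 39%. The count called higher in Dox than in Control stayed at 2 under all 10 alternatives. That share of all went from 30.6% with rpm to between 19.2% and 24.4% under the other scalings.

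For those scalings in that order, miR-26a-5p last, the log2 ratio of the cluster sum was -0.14, -0.19, -0.16, -0.21 and -0.61 for SB over Control (-0.37 with rpm), 0.23, 0.32, 0.31, 0.099 and 0.64 for Dox over SB (0.70) and 0.091, 0.13, 0.15, -0.11 and 0.027 for Dox over Control (0.33). Quantile normalization reversed the last and turned miR-25-3p for Dox over SB to -0.068. It also moved the log2 3p over 5p ratio of miR-106b to -0.94 in Control and -0.24 in Dox, and that of miR-25 to 3.09, 4.04 and 2.21 in Control, SB and Dox. It sets each rank to 1 value, so it changes ratios within a library. Over all listed miRNAs, the share of calls that were higher was 33.7% for SB against Control and 70.0% for Dox against SB with rpm, and 53.4% and 42.8% with reads on listed miRNAs. Which scaling is nearer to the cells was not tested. No paired analysis was possible because each condition had 1 library. Depth limits miR-93-3p alone among the members.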
